A study of Sus scrofa with 207 samples.

Results

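The circadian clock genes NFIL3, ARNTL, CLOCK, PER1, PER2, CRY1, CRY2, DBP, NR1D1 and BHLHE40 were followed in the muscle of 207 pigs. Members were taken as the probe sets whose single gene symbol in the array annotation was 1 of these 10 names. By this rule 6 of the 10 genes were measured, of 6765 genes in all with a probe set of a single symbol, and they were carried by 8 probe sets. CLOCK, PER2, CRY1 and NR1D1 were not analysed here, since no probe set carried their symbol alone. All animals formed 1 group: commercial crossbred pigs of the herd type Pix(DLxDE), slaughtered at 110 kg on average, with muscle RNA of each run on 1 Affymetrix Porcine Genome Array. Each label gave a drip loss, the share of its weight that a hung slice of longissimus muscle lost in the cold, and all but 8 also a fat area over that muscle. Drip loss averaged 5.37 ± 2.22% (SD, n = 207) and fat area 15.0 ± 3.15 cm2 (SD, n = 207 less those 8). The hour of sampling, sex, sire, age and slaughter day are not given in the sources used here.

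The circadian clock is a transcriptional loop that runs in most cells, muscle fibres included. The positive limb, a dimer of ARNTL (also called BMAL1) and CLOCK, switches on the PER and CRY genes, whose proteins form the negative limb and shut the dimer down. DBP is switched on by the same dimer and activates genes with a D-box, at which NFIL3 (also called E4BP4) represses. BHLHE40 (also called DEC1) competes with the dimer at E-boxes, and NR1D1 represses ARNTL, so that in mouse tissues transcripts of ARNTL and of DBP or PER peak in opposite phases of the day. PER1, NFIL3 and BHLHE40 are also known to be induced rapidly by hormones, activity or stress.

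The median log2 value of an array was 5.96 to 6.18. A group of 24 arrays, here called low-correlation arrays, agreed less with the rest (lowest median correlation 0.944, typical value 0.978), and 13 arrays lacked the poly-A spike-in signal. The numbers in the sample titles form a lower series and a higher one, with 33 animals in the higher, and were grouped in 10 blocks of 100 numbers that held 10 to 35 animals. What the numbers stand for is not stated. Of 13 measured skeletal muscle markers, 13 had a mean above the median of all probe sets.

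Among the clock genes, the repressor NFIL3 varied most between animals. On the log2 scale its values ran from 6.06 through a median of 8.06 to 10.77, with a mean of 8.20 ± 0.90 (SD, n = 207). Its SD lay at percentile 99.5 of all 23935 tested probe sets, and its 95th percentile over animals was 7.16-fold its 5th. The activator DBP ran from 5.95 through 8.52 to 9.63 (mean 8.41 ± 0.58), with an SD at percentile 97.8. ARNTL, the positive limb, ran from 4.90 through 6.51 to 8.16 (mean 6.47 ± 0.55), with an SD at percentile 97.4. These 3 genes thus spread over more than most transcripts of the array, since the median SD of all probe sets was 0.25.

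The negative limb varied less. PER1 values lay between 8.50 and 11.55 with a median of 10.24 (mean 10.27 ± 0.45, SD percentile 94.8), and its 95th percentile was 2.71-fold its 5th. CRY2 values lay between 7.52 and 10.01 with a median of 8.85 (mean 8.86 ± 0.37, SD percentile 89.3). No value of any of the 8 probe sets was at the floor of 4 that the table has.

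Both PER1 and BHLHE40 were read by a pair of probe sets, and the readings did not go together. The PER1 values above come from the one with the higher mean. The other stayed between 4.80 and 5.87 with an SD of 0.18, at percentile 9.34, and its Pearson correlation with the first was 0.111 over 207 animals. The BHLHE40 probe set with the higher mean ran from 4.57 through 6.81 to 7.75 (mean 6.78 ± 0.35), with an SD at percentile 85.8. The other, called the lower-mean BHLHE40 probe set from here on, ran from 4.84 through 6.59 to 8.71 (mean 6.69 ± 0.72), with an SD at percentile 98.96. The correlation between these BHLHE40 readings was -0.149, so their results are kept apart throughout.

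**Figure D1:**
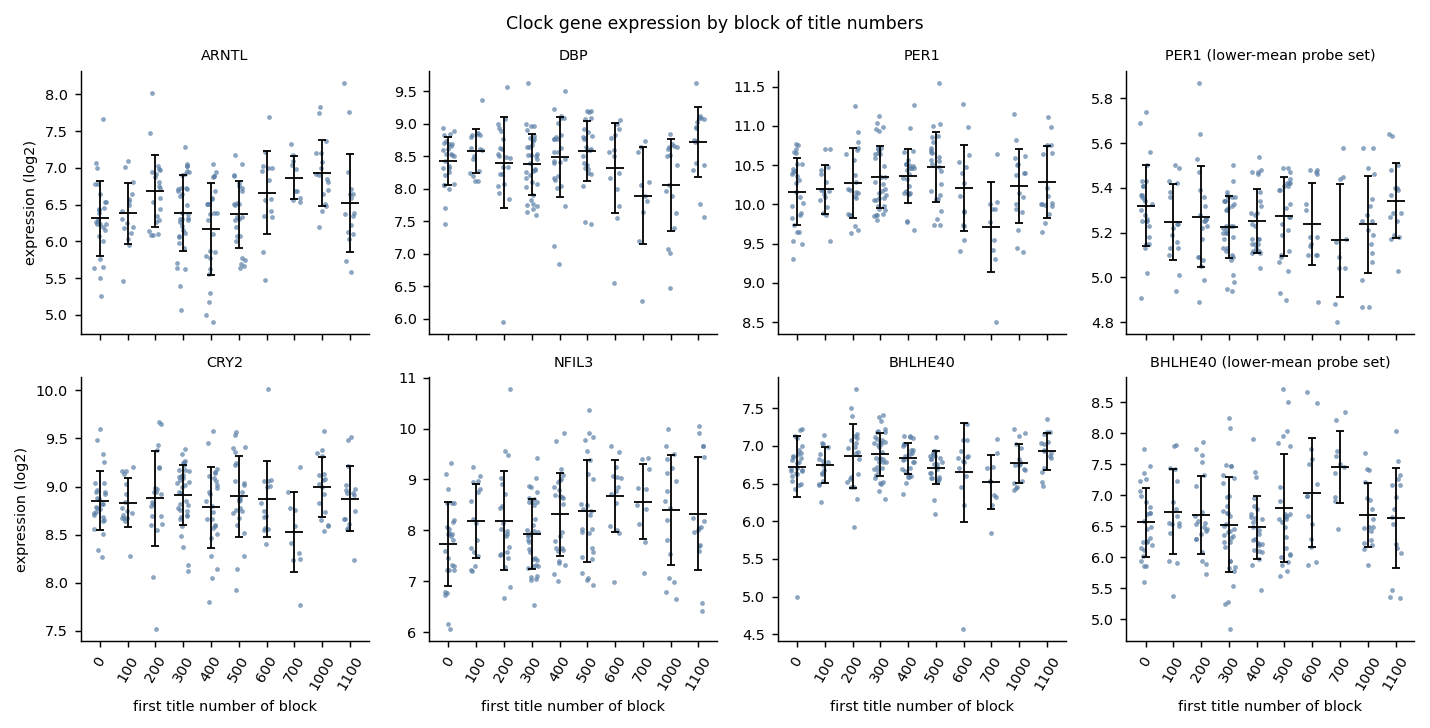
Expression of the 8 probe sets of 6 clock genes in 207 pigs, on the log2 scale, by the first title number of each block of 100. Points are animals and bars the block mean ± SD. ARNTL has block means between 6.17 and 6.93. The block starting at 700 has the highest mean of the lower-mean BHLHE40 probe set and the lowest mean of every other probe set except ARNTL and NFIL3.

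The clearest relation among the clock genes was that animals with more ARNTL had less DBP. Pearson's r was -0.634 and Spearman's rho -0.629 (n = 207), both at a two-sided p of 1e-05 (no smaller value is possible with 100000 permutations), and adjusted p-values of 7.5e-05 and 3.7e-05 over 15 gene pairs. Among 23934 other probe sets, DBP had the most negative correlation with ARNTL, and ARNTL the most negative with DBP. In limma over all probe sets a rise of ARNTL by 1 SD went with a log2 change of DBP of -0.37 ± 0.031 (SE, n = 207, adjusted p = 8.3e-21). The sign was negative in 10 of 10 blocks, with r between -0.821 and -0.439. It was -0.649 in the higher number series, -0.642 in the lower one and -0.598 without the low-correlation arrays, several of which held the lowest DBP values. Without the 2 animals farthest from the ARNTL median it was -0.626.

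The negative limb genes PER1 and CRY2 rose together. Their r was 0.483 and rho 0.487 (adjusted permutation p = 7.5e-05 and 3.7e-05 over the 15 pairs), and the relation was positive in 10 of 10 blocks, between 0.114 and 0.773. CRY2 rose by 0.18 ± 0.023 per SD of PER1 (limma adjusted p = 1.0e-10). Counted from the highest positive r, PER1 was 24th among the probe sets ranked on CRY2, and CRY2 26th among those ranked on PER1. In r without the low-correlation arrays the pair stood at 0.424.

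**Figure D2:**
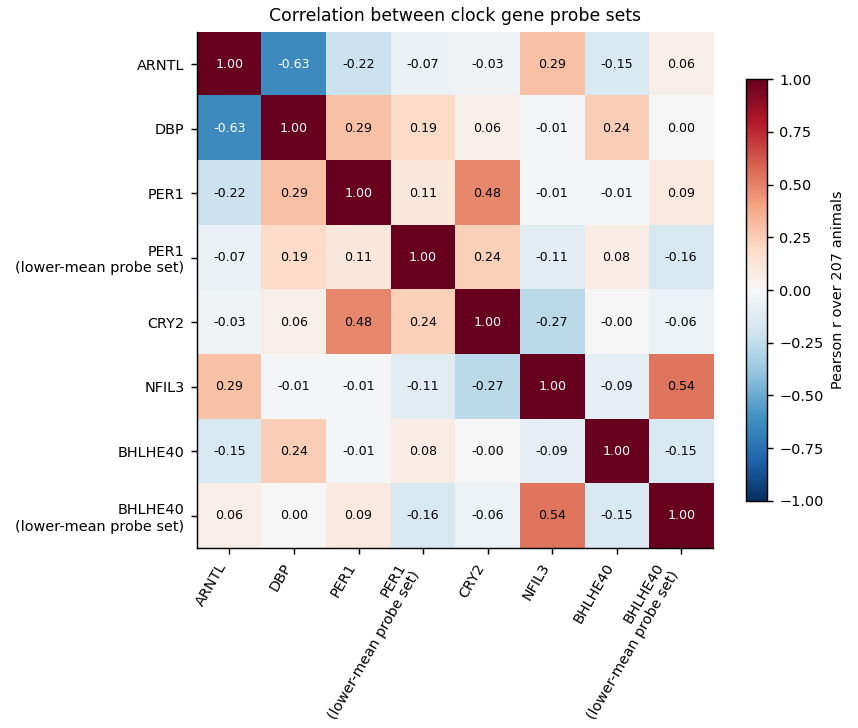
Pearson correlation over 207 animals between the 8 probe sets, with r printed in each cell and coloured from -1 to 1. The strongest cells off the diagonal are ARNTL with DBP (-0.634), the lower-mean BHLHE40 probe set with NFIL3 (0.539) and CRY2 with PER1 (0.483).

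PER1 was also tied to both ends of the ARNTL and DBP pair. It went with DBP, at r = 0.291 and rho = 0.351 (adjusted permutation p = 0.00021 and 3.7e-05), in 8 of 10 blocks, with an r of 0.078 in the higher number series and 0.344 in the lower. It went against ARNTL, at r = -0.217 and rho = -0.239 (adjusted p = 0.0040 and 0.0014), in 9 of 10 blocks. CRY2, by contrast, had an r of -0.034 with ARNTL (adjusted p = 0.86) and of 0.059 with DBP (adjusted p = 0.60), neither past the threshold. Read by the lower-mean PER1 probe set, the r of PER1 was 0.238 with CRY2 (adjusted p = 0.0016), 0.192 with DBP (adjusted p = 0.016) and -0.067 with ARNTL (adjusted p = 0.52), so that the relation to ARNTL did not pass there. This probe set, without the low-correlation arrays, passed with neither CRY2 (r = 0.158, adjusted p = 0.083) nor DBP (r = 0.137, adjusted p = 0.14), and its relation to DBP also failed centred within blocks (adjusted p = 0.072) and by rho (adjusted p = 0.055). Whether PER1 and CRY2 differ in their relation to ARNTL was not tested.

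NFIL3, the D-box repressor, rose with ARNTL, at r = 0.293 and rho = 0.295 (adjusted permutation p = 0.00020 and 3.7e-05), positive in 8 of 10 blocks and 0.361 in the higher series against 0.265 in the lower. With DBP, the activator at the same D-box sites, its r was -0.011 (adjusted p = 0.96) and did not pass. NFIL3 fell as CRY2 rose, at r = -0.268 and rho = -0.237 (adjusted p = 0.00021 and 0.0014), in 8 of 10 blocks. That last relation had an r of 0.053 in the higher number series and -0.345 in the lower one. With the first 5 principal components of all probe sets removed it was -0.092 and no longer passed (adjusted p = 0.35).

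In all, 7 of the 15 gene pairs passed the permutation test, 4 positive and 3 negative. The same 7 pairs passed limma over all probe sets in both directions of the regression. Of all probe sets, 10.483% passed limma on the level of DBP and 25.0313% on that of CRY2, the lowest and highest share among these genes. The seventh pair was BHLHE40 with DBP, at r = 0.242 (adjusted p = 0.0023) but rho = 0.074 (adjusted p = 0.43). It rested on the low-correlation arrays. On those arrays BHLHE40 averaged 6.53 ± 0.56 and DBP 8.23 ± 1.05 (SD, n = 24), against 6.82 ± 0.29 and 8.44 ± 0.48 (SD) on all others, and without them r was -0.014 (adjusted p = 0.91).

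The lower-mean BHLHE40 probe set gave another relation. Its r with NFIL3 was 0.539 and its rho 0.521 (adjusted permutation p = 7.5e-05 and 5.0e-05 over the 15 pairs with the lower-mean probe sets), positive in 10 of 10 blocks, from 0.078 to 0.773. NFIL3 rose by 0.48 ± 0.052 per SD of that probe set (limma adjusted p = 8.7e-15). With the other BHLHE40 probe set the r of NFIL3 was -0.092 (adjusted p = 0.31). Without the 2 animals farthest from the median of that other probe set it was -0.165 and passed (adjusted permutation p = 0.034). This use of the lower-mean probe sets was added after the data were seen.

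**Figure D3:**
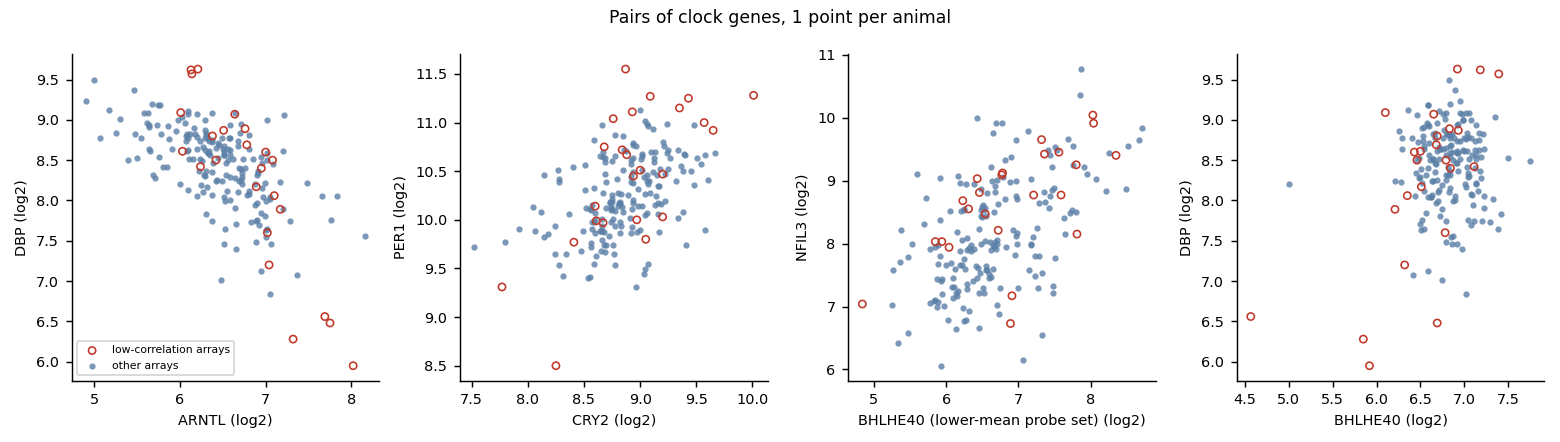
DBP against ARNTL, PER1 against CRY2, NFIL3 against the lower-mean BHLHE40 probe set, and DBP against the other BHLHE40 probe set, in log2 units with 1 point per animal. Open red circles are the 24 low-correlation arrays and blue points all other arrays; the slope in the rightmost panel (r = 0.242) rests on the red circles at low DBP.

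Pigs whose meat lost more water carried less NFIL3 mRNA. In the 52 animals with a drip loss of at least 7.20% NFIL3 ran from 6.42 through a median of 7.90 to 9.99, and in the 52 with at most 3.59% from 6.73 through 8.56 to 10.04. These ends of the drip loss range overlapped over most of their NFIL3 values. For each SD of drip loss NFIL3 fell by 0.24 ± 0.059 log2 units (SE, 207 animals, limma with an adjusted p of 0.0080 over all 23935 probe sets). The lower-mean BHLHE40 probe set ran from 5.34 through 6.40 to 7.91 in the animals at the high end of drip loss, and from 5.37 through 6.84 to 8.67 in those at the low end. It fell by 0.16 ± 0.048 per SD (limma adjusted p = 0.039).

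These were 2 of the 8 member probe sets, both lower with drip loss, while over all probe sets 2.67% were lower and 1.94% higher. The other BHLHE40 probe set had a slope of 0.048 ± 0.024 per SD (SE, adjusted p = 0.24) and CRY2 of 0.050 ± 0.026 (adjusted p = 0.27). ARNTL had a slope of -0.064 ± 0.038 (adjusted p = 0.35), PER1 of -0.030 ± 0.031 (adjusted p = 0.65) and DBP of -0.0093 ± 0.040 (adjusted p = 0.93). Thus no probe set of ARNTL, DBP, PER1 or CRY2 passed. A slope that does not pass is not shown to be 0.

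The NFIL3 slope did not pass with the title number blocks in the fit (-0.22 ± 0.061, adjusted p = 0.051) or with 5 principal components (-0.047 ± 0.044, adjusted p = 0.86). Within the higher number series it was -0.46 ± 0.17 and within the lower -0.20 ± 0.062, and it was negative in 7 of 10 blocks. The call for the lower-mean BHLHE40 probe set was lost in both of these fits, at -0.12 ± 0.049 (adjusted p = 0.27) and -0.037 ± 0.037 (adjusted p = 0.87). It was also lost without the low-correlation arrays (-0.14 ± 0.050, adjusted p = 0.14) and without the arrays lacking spike-in signal (-0.15 ± 0.050, adjusted p = 0.060).

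For fat area, 0 of the 8 member probe sets passed limma, 0 had an unadjusted p under 0.05, and 0.121% of all probe sets passed in either direction. DBP had the smallest p, with a slope of 0.070 ± 0.040 per SD of fat area (SE, limma adjusted p = 0.77). DBP ran from 7.49 through 8.55 to 9.37 in the 50 animals with a fat area of at least 17.05 cm2 and from 6.84 through 8.42 to 9.50 in the 52 with at most 12.7 cm2. NFIL3 had a slope of 0.086 ± 0.063 (adjusted p = 0.83). The drip loss slope of NFIL3 minus its fat area slope was -0.30 ± 0.082 and did not pass (adjusted p = 0.062), nor did this difference for any other member probe set.

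**Figure D4:**
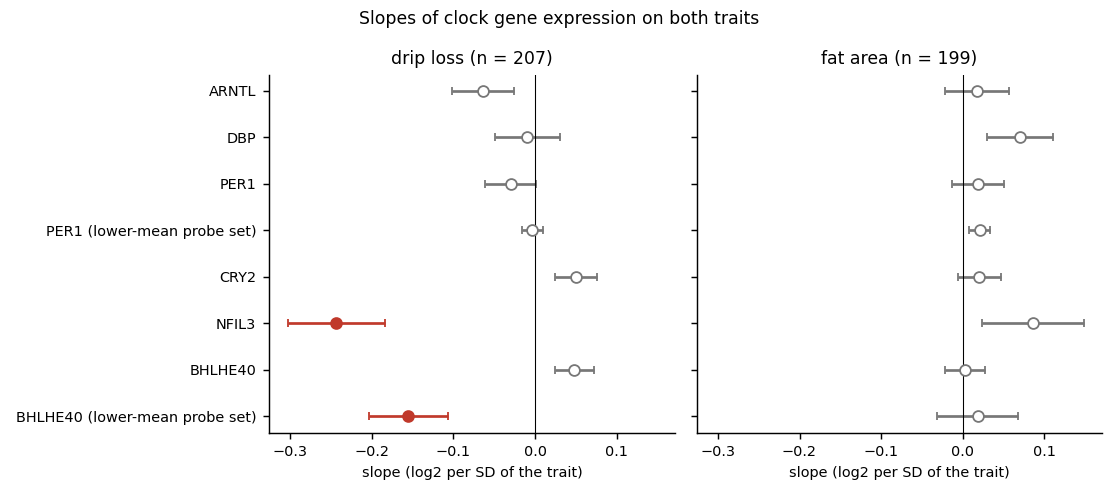
Slope of each clock gene probe set on drip loss (left, n = 207) and fat area (right, 8 animals fewer), in log2 units per SD of the trait, with bars of 1 SE. Filled red points passed limma with an adjusted p under 0.05 over all probe sets; these are NFIL3 (-0.24) and the lower-mean BHLHE40 probe set (-0.16) for drip loss.

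Differences between blocks of title numbers were common on the array, with 38% of all probe sets passing the limma F-test, and the 4 of 8 member probe sets that passed are close to that share. ARNTL had the smallest adjusted p, 0.00041, and the blocks held 16.5% of its variance, at percentile 92.8 of all probe sets. Its block means ran from 6.17 ± 0.63 (SD, n = 26) in the block starting at 400 to 6.93 ± 0.45 (SD, n = 17) in that starting at 1000. PER1 (adjusted p = 0.0083), DBP (0.012) and the lower-mean BHLHE40 probe set (0.033) also passed. The block starting at 700, with 10 animals, had the lowest DBP mean, 7.89 ± 0.74, and the lowest PER1 mean, 9.71 ± 0.57. Its means were also the lowest for CRY2 (8.525), the higher-mean BHLHE40 probe set (6.52) and the lower-mean PER1 probe set (5.165). Several of its arrays were low-correlation arrays, among them that with its lowest DBP (6.28) and PER1 (8.50) values. The part of these arrays in the block means was not tested. The variance held by the blocks lay at percentile 60.2 for NFIL3, 34.4 for CRY2 and 27.7 for the lower-mean PER1 probe set, with the higher-mean BHLHE40 probe set between NFIL3 and CRY2. Without the low-correlation arrays ARNTL was the only member probe set that passed (adjusted p = 0.0097), where 27.96% of all probe sets passed.

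The test of all probe sets on the level of each clock gene gave the wider pattern that each belongs to. It was read on gene lists of other clock components, muscle genes under clock control, glucocorticoid-responsive genes, immediate early genes and cell type markers. Immediate early genes are switched on within minutes of a stimulus. Of 17 measured, 17 rose with NFIL3 and 17 with the lower-mean BHLHE40 probe set, where 9.91% and 6.53% of all probe sets rose and 13.4% and 9.79% fell. The median slope of the list was 0.33 per SD of NFIL3 and 0.32 per SD of the lower-mean BHLHE40 probe set, against -0.0070 and -0.0069 over all probe sets.

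Among them the transcription factor MYC rose by 0.54 ± 0.038 per SD of NFIL3 and KLF4 by 0.45 ± 0.033. ATF3, a stress-induced factor, rose by 0.63 ± 0.053 and FOS by 0.64 ± 0.072. NR4A3, an orphan nuclear receptor, rose by 0.73 ± 0.062 per SD of the lower-mean BHLHE40 probe set. With 5 principal components in the fit the counts were 6 for NFIL3 and 2 for the lower-mean BHLHE40 probe set, where 2.03% and 1.87% of all probe sets rose. With the blocks, or without the low-correlation arrays, all 17 passed for both. Of all probe sets 7.80% and 7.76% rose with NFIL3 in these settings, and 5.69% and 5.67% with the lower-mean BHLHE40 probe set. The same list moved with drip loss: 12 of 17 fell and 0 rose, where 2.67% of all probe sets fell and 1.94% rose. With 5 principal components 4 fell, where 0.042% of all probe sets fell. Among the 12, DUSP1 fell by 0.27 ± 0.039, CYR61 by 0.34 ± 0.050, FOS by 0.49 ± 0.078, EGR1 by 0.42 ± 0.067, MYC by 0.27 ± 0.050 and KLF4 by 0.22 ± 0.043 per SD. The part of the immediate early genes in the NFIL3 and BHLHE40 slopes on drip loss was not tested.

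In the fits over all arrays without covariates, other clock genes showed less of this. With the higher-mean PER1 probe set, 10 of the 17 immediate early genes rose and 0 fell, against 8.28% of all probe sets rising and 11.1% falling. Without the low-correlation arrays 5 rose, where 1.755% of all probe sets rose. With the blocks 12 rose with this PER1 probe set, where 9.30% of all probe sets rose. With 5 principal components 11 rose, where 3.65% of all probe sets rose. That is more than the 6 for NFIL3 and the 2 for the lower-mean BHLHE40 probe set in the same setting. With the lower-mean PER1 probe set 0 of the 17 passed limma, where 12.9% of all probe sets passed. In that fit 1 of 17 slopes was positive, the median slope was -0.040 and 4 genes had an unadjusted p under 0.05. With CRY2, 0 rose and 6 fell, against 10.8% and 14.2%. Without the low-correlation arrays 1 fell with CRY2, where 6.731% of all probe sets fell. With 5 principal components the direction turned, and 3 rose and 0 fell with CRY2, where 2.39% of all probe sets rose and 1.37% fell. With DBP 3 rose (background 4.56% rising and 5.92% falling). Without the low-correlation arrays 1 rose with DBP (background 0.539% rising and 0.338% falling). With ARNTL 0 passed limma (7.55% and 5.38%) and 2 had an unadjusted p under 0.05, and with the higher-mean BHLHE40 probe set 0 passed (5.93% and 6.13%) and 2 had such a p.

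**Figure D5:**
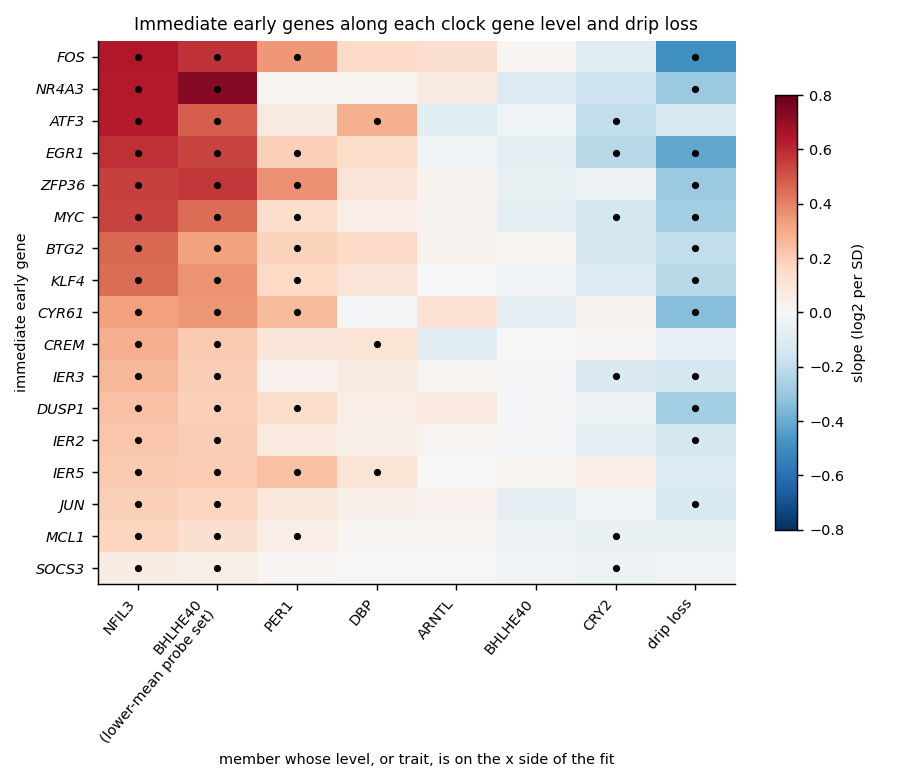
Slopes of 17 immediate early genes (rows) on clock gene levels and on drip loss (columns), in log2 units per SD. Every clock gene probe set except the lower-mean PER1 probe set is shown. Black dots mark a limma adjusted p under 0.05. The NFIL3 and lower-mean BHLHE40 columns hold 17 dots each, all positive, the higher-mean PER1 probe set holds 10, ARNTL 0, and drip loss 12, all negative.

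Single genes of the lists moved with ARNTL, DBP or both. UCP3, a mitochondrial carrier that fasting induces in muscle, rose by 0.30 ± 0.062 per SD of ARNTL (adjusted p = 0.00024) and fell by 0.35 ± 0.060 per SD of DBP (adjusted p = 5.7e-06). ANGPTL4, an inhibitor of lipoprotein lipase from the glucocorticoid-responsive list, rose by 0.17 ± 0.047 with ARNTL and fell by 0.18 ± 0.047 with DBP. GYS1, the glycogen synthase of muscle, rose by 0.13 ± 0.021 per SD of DBP and SLC2A4, the insulin-regulated glucose transporter, by 0.075 ± 0.020. FKBP5, a co-chaperone of the glucocorticoid receptor and also of that list, fell by 0.22 ± 0.035 with DBP. That list of 15 measured genes had 1 rising and 1 falling with ARNTL, and 0 rising and 2 falling with DBP. Of 22 measured muscle genes under clock control, which include UCP3, GYS1 and SLC2A4, 4 rose and 1 fell with ARNTL, where 7.55% of all probe sets rose and 5.38% fell. With DBP 3 rose and 1 fell, against 4.56% and 5.92%. With PER1 5 rose and 2 fell, against 8.28% and 11.1%, and with CRY2 5 rose and 3 fell, against 10.8% and 14.2%. With the lower-mean PER1 probe set 3 rose and 3 fell, where 12.9% of all probe sets passed. Without the low-correlation arrays 1 rose and 0 fell with ARNTL (against 3.04% and 1.22%) and 4 and 0 with PER1 (against 1.755% and 0.765%). In that setting 4 rose and 1 fell with CRY2 (against 6.255% and 6.731%), and 0 rose and 1 fell with DBP (against 0.539% and 0.338%). The rises of GYS1 and SLC2A4 with DBP thus did not pass there. ARNTL and DBP were read on the same animals and are themselves correlated, so these are not separate results.

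Some of the glucocorticoid-responsive genes, and KLF15 of the muscle list, rose with PER1 and CRY2. KLF15, a factor of amino acid and lipid use that glucocorticoids induce, rose by 0.28 ± 0.023 per SD of PER1 (adjusted p = 4.8e-22) and by 0.21 ± 0.026 per SD of CRY2 (adjusted p = 8.3e-11). FOXO1, a factor of fasting, rose by 0.20 ± 0.025 and 0.23 ± 0.024 for the same 2 clock genes, and TSC22D3, a classic glucocorticoid target, by 0.085 ± 0.021 and 0.18 ± 0.018. Of 15 measured glucocorticoid-responsive genes 5 rose and 1 fell with PER1, where 8.28% of all probe sets rose and 11.1% fell, and 4 rose and 0 fell with CRY2, where 10.8% rose and 14.2% fell. Without the low-correlation arrays these counts were 3 and 1 for PER1, against 1.755% and 0.765% of all probe sets. For CRY2 they were 3 and 0, against 6.255% and 6.731%. With the lower-mean PER1 probe set, over all arrays, 1 rose and 0 fell, where 12.9% of all probe sets passed. With NFIL3 4 rose and 4 fell, against 9.91% and 13.4% of all probe sets: CEBPD rose by 0.20 ± 0.044, while TSC22D3 fell by 0.14 ± 0.020 and FKBP5 by 0.16 ± 0.036. With 5 principal components 0 rose and 6 fell with NFIL3, where 2.03% of all probe sets rose and 1.40% fell.

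NFIL3 and the lower-mean BHLHE40 probe set also went with a few muscle genes under clock control. PPARGC1A, the coactivator of mitochondrial biogenesis, rose by 0.56 ± 0.080 per SD of NFIL3 and by 0.79 ± 0.070 per SD of the lower-mean BHLHE40 probe set. WEE1, a cell cycle kinase, rose by 0.17 ± 0.022 and 0.13 ± 0.023 for the same 2 probe sets. SLC2A4 fell by 0.11 ± 0.019 and 0.060 ± 0.020. Of the 22 measured genes 5 rose and 6 fell with NFIL3, against 9.91% and 13.4% of all probe sets. With 5 principal components 1 rose and 6 fell with NFIL3, against 2.03% and 1.40%. With the lower-mean BHLHE40 probe set 6 rose and 4 fell, against 6.53% and 9.79%. For that probe set 5 rose and 0 fell with 5 principal components (against 1.87% and 1.06%), and 7 rose and 1 fell with the blocks (against 5.69% and 8.08%). With drip loss 0 rose and 3 fell, where 2.67% of all probe sets fell: WEE1 by 0.10 ± 0.024, the NAD salvage enzyme NAMPT by 0.096 ± 0.027 and the cell cycle inhibitor CDKN1A by 0.10 ± 0.032 per SD. The count was 1 without the low-correlation arrays, 1 with the blocks and 0 with 5 principal components, where 3 had an unadjusted p under 0.05. Over all probe sets 0.57%, 0.41% and 0.042% fell in these settings.

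Of 30 listed other clock components 7 were measured. CSNK1D, the kinase that marks PER proteins, rose by 0.12 ± 0.017 per SD of PER1 and by 0.12 ± 0.017 per SD of CRY2. USP2, a deubiquitinase with a rhythmic transcript in mouse tissues, rose by 0.17 ± 0.026 and 0.15 ± 0.027 for the same pair and by 0.097 ± 0.028 with DBP. HNRNPD, an RNA-binding protein, rose by 0.077 ± 0.017 with ARNTL, and KDM5A, a histone demethylase that binds the CLOCK dimer, rose by 0.042 ± 0.015 with ARNTL and fell by 0.045 ± 0.015 with DBP. Without the low-correlation arrays 1 of the 7 rose with ARNTL and 0 passed with DBP in limma (3 had an unadjusted p under 0.05), while 2 rose with PER1 and 2 with CRY2. Of all probe sets 3.04% rose with ARNTL in that setting, 0.88% passed with DBP, 1.755% rose with PER1 and 6.255% with CRY2. For drip loss and for fat area 0 of the 7 passed limma. HNRNPD had the smallest p for drip loss (slope -0.052 ± 0.017, adjusted p = 0.057), followed by USP2 (-0.070 ± 0.028, adjusted p = 0.14). At an unadjusted p under 0.05 the counts were 3 of 7 for drip loss and 1 of 7 for fat area. For drip loss they were 0 of 7 without the low-correlation arrays and 0 of 7 with 5 principal components. Of all 23935 probe sets 3123 and 1822 had such a p in the last 2 settings. After quantile normalization of the arrays 4748 had such a p for drip loss and 1692 for fat area.

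Over the 207 animals, the genes most like each clock gene by Spearman rho were sought among 6202 probe sets of single symbols with a mean above the median. For ARNTL they were SCAMP2 (0.444), FNTB (0.441) and POLR3C (0.438), and at the other end KLF13 (-0.414), GLRX5 (-0.344) and POLR2E (-0.337). For DBP they were TSPAN14 (0.469), SLC25A30 (0.429) and GPRC5C (0.425), against BIVM (-0.398), WSB1 (-0.389) and UCP3 (-0.388). The ARNTL and DBP correlation was thus larger in size than any of these for either gene. PER1 was nearest to KLF13 (0.603), KLF15 (0.578) and ETS2 (0.555) and farthest from RRS1 (-0.441), CLDN5 (-0.428) and SMAD1 (-0.402). CRY2 was nearest to GSE1 (0.550), ABHD4 (0.550) and FOXO1 (0.527) and farthest from SMAD1 (-0.530), CLDND1 (-0.502) and EIF4E (-0.492). SMAD1 thus stood at the negative end for both negative limb genes, and KLF13 at opposite ends for PER1 and ARNTL.

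NFIL3 had the closest companions: TGIF1 (0.726), LONRF3 (0.716) and KLF4 (0.697), against PIK3IP1 (-0.628), CEP85 (-0.580) and SWSAP1 (-0.570). The lower-mean BHLHE40 probe set was nearest to TGIF1 (0.678), NR4A3 (0.673) and RRAD (0.663) and farthest from MRPS15 (-0.508), ZNF3 (-0.497) and SWSAP1 (-0.494). TGIF1 and SWSAP1 stood at the same ends for both. The higher-mean BHLHE40 probe set had other companions, TMEM42 (0.498), KCNJ1 (0.472) and MFSD3 (0.422), against DHX9 (-0.391), PRPF4B (-0.363) and JAK1 (-0.362). The lower-mean PER1 probe set was nearest to ORAI1 (0.359), PREB (0.356) and CDK16 (0.341) and farthest from CFAP20 (-0.395), DNAJB9 (-0.351) and KLHL41 (-0.334).

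Markers of other cells moved with some clock genes. In whole muscle, fewer cells of a type and less RNA per cell cannot be told apart. Of 6 measured fibroblast markers 5 fell and 0 rose with ARNTL, where 5.38% of all probe sets fell. The proteoglycan LUM fell by 0.16 ± 0.037 per SD and the surface protein THY1 by 0.14 ± 0.031. Without the low-correlation arrays 1 of the 6 fell, where 1.22% of all probe sets fell. Of 6 macrophage markers 4 fell with CRY2, where 14.2% of all probe sets fell, among them CD163, a scavenger receptor, by 0.13 ± 0.038. Of 4 blood cell markers 3 rose and 1 fell with CRY2, where 10.8% of all probe sets rose, and 2 rose and 1 fell without the low-correlation arrays. Of 9 endothelial markers 1 rose and 3 fell with CRY2. With PER1 2 rose and 2 fell, where 8.28% of all probe sets rose and 11.1% fell. Without those arrays the endothelial counts were 0 and 1 with CRY2, and 0 and 2 with PER1. In that setting 6.255% of all probe sets rose and 6.731% fell with CRY2, and 1.755% and 0.765% with PER1. With CRY2 and with PER1 3 of the 6 fibroblast markers fell, and 0 did without those arrays, where 1 and 0 had an unadjusted p under 0.05. With the lower-mean BHLHE40 probe set 5 of 8 slow fibre markers fell, where 9.79% of all probe sets fell, among them TNNC1, the slow troponin C, by 0.045 ± 0.013. Without the low-correlation arrays 0 of these markers passed limma, where 8.185% of all probe sets fell, and 5 had an unadjusted p under 0.05. With 5 principal components 0 of the macrophage markers (1 at an unadjusted p under 0.05) and 0 of the slow fibre markers (0 at such a p) passed limma in these fits. In that setting 3 of the fibroblast markers fell with ARNTL, where 1.94% of all probe sets fell. The part of these cells in the clock gene relations was not tested.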

How the data were processed

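The authors deposited log2 values per probe set, made with GCOS 1.1.1 and PLIER per the submitters' processing notes; scaling between arrays is not given in the sources used here, and the values were used as deposited. Of 24123 probe sets 188 controls were left out. Each of 23935 was regressed on a trait or a clock gene's level, scaled to SD 1, with lmFit and eBayes (limma 3.58.1, R 4.3.3), Benjamini-Hochberg adjusted over all, threshold 0.05, two-sided. Gene pairs used the probe set with the highest mean, 100000 permutations (numpy 2.4.6) and adjustment over 15 pairs. The limma slope fit on a trait and the permutation test of gene pairs were tested on simulated data, the other steps were not. Low-correlation arrays lay over 3 scaled MAD below the median. The members and gene lists were chosen with earlier results of these data known. Named were all members, up to 6 list genes by smallest p per trait (otherwise 2), and the 3 nearest genes at each end; list genes named for a clock gene's level were chosen after their values were seen. Nothing says that animals share litters; p-values treat them as separate. The number of arrays limits precision.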

Additional observations from a re-analysis of the deposited data

How the results depend on the processing

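Of 8 member probe sets, 2 passed for drip loss in the settings not named here, 1 without the low-correlation arrays, 1 without the arrays lacking spike-in signal, 0 with 5 principal components and 0 with the title number blocks. For fat area 0 passed in every setting run. For the blocks 4 to 6 passed in the other settings, where 33.92% to 62.4% of the tested probe sets passed. Without the low-correlation arrays 1 passed, where 27.96% of all probe sets did. With 5 principal components 2 passed, against 17.47%, and for the 2 number series 1 passed, against 12.83%. The cause of these differences was not tested. Between 6 and 8 of the 15 gene pairs passed in every setting with the highest-mean probe sets, and 5 to 7 with the lower-mean ones. ARNTL with DBP and CRY2 with PER1 kept their signs and their calls in each setting on the highest-mean probe sets.

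Among the trait slopes and gene pairs run with all settings, those that changed sign were near 0 or involved BHLHE40. Apart from these, the immediate early genes turned from 6 falling with CRY2 to 3 rising with 5 principal components, and CRY2 with NFIL3 had an r of 0.053 in the higher number series alone. Without the low-correlation arrays, BHLHE40 had an r of -0.0138 with DBP (-0.0179 also centred within blocks), 0.0269 with ARNTL (0.0199 centred), 0.0459 with CRY2 (0.0413 centred) and 0.0195 with PER1. DBP with NFIL3 was then 0.000347 (0.00155 centred), and the drip loss slope of the lower-mean PER1 probe set was 0.000225. With 5 principal components BHLHE40 had an r of 0.0395 with NFIL3 and 0.00933 with PER1. After quantile normalization BHLHE40 with CRY2 was 0.0371 and with PER1 0.00477. By Spearman rho BHLHE40 with CRY2 was 0.0833, with PER1 0.0402, and DBP with NFIL3 0.0536. Without the 2 farthest animals BHLHE40 with CRY2 was 0.112 and with PER1 0.085, DBP with NFIL3 0.0224 and NFIL3 with PER1 0.0224. Without the arrays lacking spike-in signal DBP with NFIL3 was 0.00409 and NFIL3 with PER1 0.0206. Centred within blocks DBP with NFIL3 was 0.00807, and ARNTL with the lower-mean BHLHE40 probe set was -0.0208, against 0.0569 uncentred. With the mean of both probe sets BHLHE40 with NFIL3 was 0.473 and with PER1 0.034, and with the lower-mean probe set BHLHE40 with NFIL3 was 0.539. The fat area slope of BHLHE40 was -0.00206 without the low-correlation arrays, -0.00482 with 5 principal components, -0.00188 with blocks and -0.00355 with the EIF1AY level as a covariate.

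No paired analysis was possible because all animals form 1 group. The settings with the lower-mean probe sets, and that without the low-correlation arrays centred within blocks, were chosen after seeing the data.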
